A study of Homo sapiens with 17 samples.

Results

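The mRNAs described here encode the machinery that brings new secretory and membrane proteins to the endoplasmic reticulum (ER), passes them through its membrane, removes their signal peptides, attaches N-linked glycans and folds them. The 40 members were chosen by gene name, not by measured values, though earlier results of these data were known. All 40 were found once, as protein-coding genes, among the 18869 genes of the deposited table. By role they form 5 groups, with 8 genes in targeting, 10 in the translocon, 5 in signal peptidase, 9 in oligosaccharyltransferase and 8 in folding. Ribo-STAMP used HEK293T, an established human embryonic kidney line, with lentivirally integrated constructs that doxycycline switches on. RPS2-STAMP cells made the cytidine deaminase APOBEC1 fused to the ribosomal protein RPS2, so that C-to-U edits mark RNA near ribosomes, and Control-STAMP cells made APOBEC1 with no ribosomal protein. Both lines were induced for 24 h with doxycycline at 50 ng/mL and crosslinked with 0.1% formaldehyde, and RNA was sequenced from the cytoplasmic portion of the cells (Input), per the paper, and from immunoprecipitates made from that portion with antibodies to the nuclear poly(A) binding protein (PABPN fraction) and the cytoplasmic one (PABPC fraction), marked as IP in the plots. RPS2-STAMP contributed 3 samples to every fraction, and Control-STAMP contributed 3 to the Input, 3 to the PABPN fraction and 2 to the PABPC fraction, 17 in all.

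Editing was given as 1 normalized EPKM per gene and fraction, meaning edits scaled to transcript length and to mapped reads after subtraction of the control condition, and abundance as 1 average TPM (reads scaled to length and depth, exonic and intronic TPM added) per gene and fraction. Whether Control-STAMP samples entered the TPM averages is not stated. Both quantities are per length and pooled over replicates, so no value below has an SD or an n, no test was possible, and no difference between fractions has a replicate check. Neither read nor edit counts accompany the values, so the depth behind each is unknown. An EPKM counts edits against all mapped reads, and it therefore follows how abundant an mRNA is as well as how densely it is edited. Background values come from the 9607 protein-coding genes whose TPM reached 5 in both precipitates, a filter that all 40 members passed. Because RNA of many cells was pooled, fewer cells with an mRNA and fewer copies per cell cannot be told apart. Of 7 genes expected in HEK293T cells, 5 had an Input TPM of at least 5, led by VIM at 184, while PAX2 at 0.797 and KRT8 at 2.16 did not. Of 7 markers of other cell types, COL1A1 alone was among the genes of the table, at an Input TPM of 1.90.

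Proteins bound for the secretory pathway carry a hydrophobic signal that the signal recognition particle (SRP) grasps as it leaves the ribosome, and the SRP receptor then hands the ribosome to the SEC61 channel. Signal peptidase cuts the signal off inside the ER, and oligosaccharyltransferase moves a preassembled glycan from dolichol to asparagine residues of the chain. The lectins calnexin and calreticulin, with protein disulfide isomerases and glucose-trimming enzymes, then hold and fold the glycoprotein. Most of these mRNAs encode membrane or lumenal proteins and are themselves translated at the ER surface, whereas most SRP subunits are made in the cytosol and SEC61B and SEC61G are tail-anchored proteins inserted after translation.

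SRP9 and DAD1 lie at the ends of the range of editing in the Input and the PABPC fraction, though not in the PABPN fraction, and their sequences are printed with every cytidine, the base that APOBEC1 deaminates, in capitals. SRP9, the gene of an SRP subunit that binds the Alu domain of SRP RNA, lies on the plus strand at chr1:225777813-225790468 of hg38, and its whole coding sequence of 261 bases, spliced from 3 exons, holds 51 cytidines, or 19.5%. DAD1, the gene of a small membrane subunit of oligosaccharyltransferase, lies on the minus strand at chr14:22564907-22589224, and bases 1 to 261 of its 342-base coding sequence are shown. The whole DAD1 coding sequence has 94 cytidines, or 27.5%.
SRP9: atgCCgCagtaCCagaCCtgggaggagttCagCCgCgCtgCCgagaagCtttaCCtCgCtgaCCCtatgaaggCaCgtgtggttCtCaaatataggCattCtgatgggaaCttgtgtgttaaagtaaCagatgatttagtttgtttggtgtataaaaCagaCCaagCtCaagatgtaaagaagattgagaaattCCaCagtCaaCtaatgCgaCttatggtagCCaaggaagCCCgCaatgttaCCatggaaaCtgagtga
DAD1: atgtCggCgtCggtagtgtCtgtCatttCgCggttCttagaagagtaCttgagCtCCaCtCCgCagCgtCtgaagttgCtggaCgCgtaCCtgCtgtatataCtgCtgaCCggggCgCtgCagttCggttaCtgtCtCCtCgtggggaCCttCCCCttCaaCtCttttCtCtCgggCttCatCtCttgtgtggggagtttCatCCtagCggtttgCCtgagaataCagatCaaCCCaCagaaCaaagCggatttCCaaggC

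SRP9 had the highest EPKM of all 40 members in the Input and the PABPC fraction, at 1.03 in the Input, 0.470 in the PABPC fraction and 0.234 in the PABPN fraction. It was also the most abundant member, with a TPM of 472 in the Input, 1276 in the PABPC fraction and 576 in the PABPN fraction. Divided by TPM, its editing was 2.18 EPKM per 1000 TPM in the Input, where the background median was 1.61. It was 0.368 in the PABPC fraction and 0.407 in the PABPN fraction, where the background medians were 1.38 and 0.704. These medians are of all background genes, not of genes as abundant as SRP9. DAD1 stood behind SRP9 and CALR alone in Input abundance, at a TPM of 252, yet it was listed at an EPKM of 0 in the Input and in the PABPC fraction and at 0.0488 in the PABPN fraction. The mRNA with the denser supply of cytidines thus had the lower EPKM of the pair. How the control subtraction led to values of 0 is not stated. An EPKM listed at 0, here and below, may therefore mean editing no higher than in the control condition, not an absence of edits. Cytidines with A or T on both sides (ACA, ACT, TCA or TCT, read on the coding strand), a setting that APOBEC1 is known to favour, numbered 13 in the SRP9 coding sequence, or 49.8 per kilobase, and 27 in that of DAD1, or 78.9 per kilobase, against a median of 62.9 per kilobase over 9556 protein-coding genes. The density of such cytidines and Input EPKM per 1000 TPM had a Spearman rho of -0.033 over 40 members and 0.076 over 9556 genes. Which cytidines were edited cannot be read from values per gene, and edits outside the coding sequence count as well.

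Across the 40 members the median EPKM was 0.115 in the Input, 0.0916 in the PABPC fraction and 0.0866 in the PABPN fraction. Over the background genes the medians were 0.0273, 0.0501 and 0.0334, so that the members lay above the background in each fraction, at the 85.1st percentile in the Input, the 71.9th in the PABPC fraction and the 79.4th in the PABPN fraction. Input EPKM was above the protein-coding median in 33 of 40 members, where 50.0% of background genes were, and above the median of genes whose TPM reached 50 in both precipitates in 22 of 40. These mRNAs were abundant too, with a median Input TPM of 50.2 against 15.8, the 83.4th percentile, and Input TPM and Input EPKM were related across genes (Spearman rho of 0.576 over 40 members and 0.531 over 9607 genes, which share the same libraries and are not replicates). Divided by TPM, the median Input editing was 2.62 EPKM per 1000 TPM for members and 1.61 for background genes, and 28 members were above that background median. In the PABPC fraction the same quotient was 0.965 for members and 1.38 for background genes, with 17 members above, and in the PABPN fraction it was 1.13 and 0.704, with 28 above. By this quotient the members stood above the background median in the Input and the PABPN fraction and below it in the PABPC fraction. Dividing by TPM does not compare genes of like abundance. Bins of Input TPM were set after the values were seen. Below 20, the median PABPC fraction EPKM was 0.0232 for members and 0.0332 for background genes. It was 0.106 and 0.0771 from 20 to 50, 0.130 and 0.111 from 50 to 100, and 0.128 and 0.139 above. The members thus lay on either side of genes of like abundance there.

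**Figure D1:**
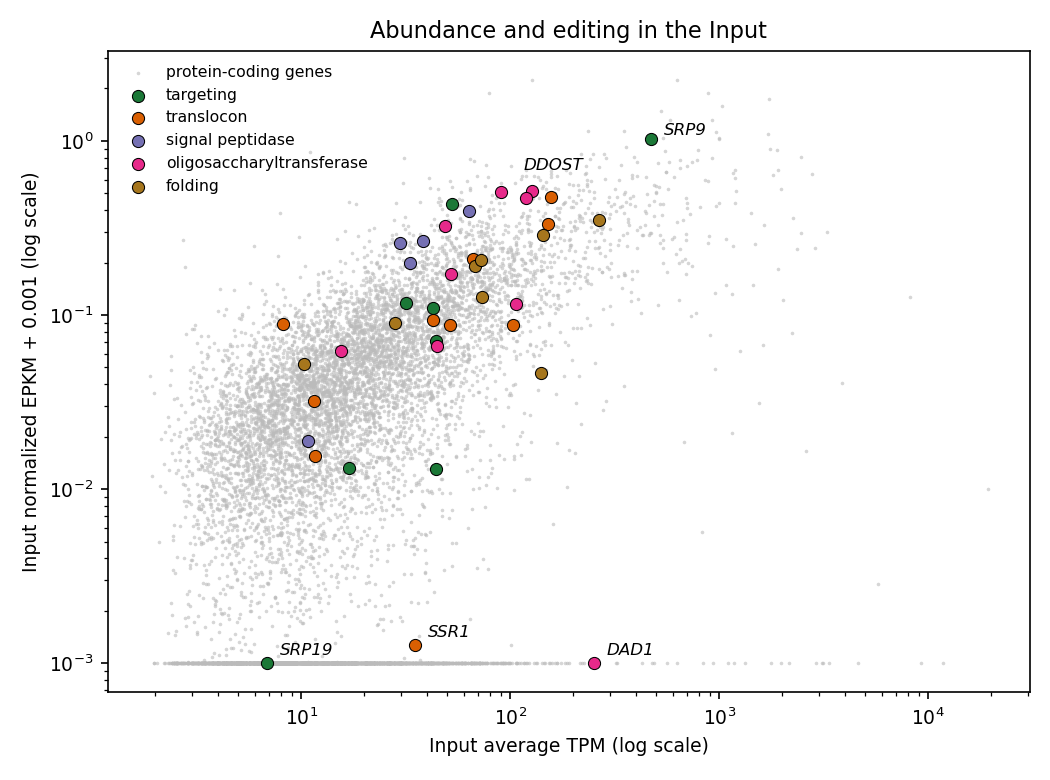
Input normalized EPKM plus 0.001 (y axis, log scale) against Input average TPM (x axis, log scale) for 9607 protein-coding genes in grey and 40 members coloured by role, 1 point per gene. SRP9 stands at the top right of the members, and DAD1, at a TPM of 252, lies with SRP19 on the line of genes listed at an EPKM of 0.

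EPKM was higher in the PABPC fraction than in the PABPN fraction for 19 of 40 members, where 56.4% of background genes were, and higher in the PABPN fraction for 20, where 37.4% were. PDIA6 was listed at 0 in both precipitates. With a difference of at least 1 in log2(EPKM + 0.01), a gap of 2-fold or more favoured the PABPC fraction in 10 members and the PABPN fraction in 13, against 36.3% and 21.1% of background genes. The members were thus split about evenly, and which direction was ahead depended on the choices made, with 17 of 32 higher in the PABPC fraction where both values were above 0, 16 of 30 without the translocon group, and 2-fold counts of 14 and 13 at a pseudocount of 0.001. No share of background genes was computed for values above 0 in both precipitates or for a pseudocount of 0.001. With EPKM divided by the TPM of the same fraction the count higher in the PABPC fraction was 17 of 40 against 59.5%. Among the 20 members with an Input TPM of 50 or more, 9 had the higher EPKM in the PABPC fraction. By Input TPM, the share of background genes with the higher EPKM in the PABPC fraction was 52.3% below 20, 60.0% from 20 to 50, 66.0% from 50 to 100 and 64.9% above. The corresponding counts of members were 3 of 8, 7 of 12, 4 of 9 and 5 of 11, in bins that were set after the values were seen.

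Compared with the Input, EPKM was lower in the PABPC fraction for 23 members (37.4% of background genes) and lower in the PABPN fraction for 25 (47.3%), and both counts share the Input values. An EPKM of 0 was listed for 2 members in the Input (21.9% of background genes), for 6 in the PABPC fraction (17.4%) and for 3 in the PABPN fraction (27.1%). The 6 in the PABPC fraction were SEC61A2, SSR3, SPCS1, DDOST, DAD1 and PDIA6, and none of them had a TPM below 15 there. No member was at 0 in all 3 fractions, and none lacked a TPM.

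**Figure D2:**
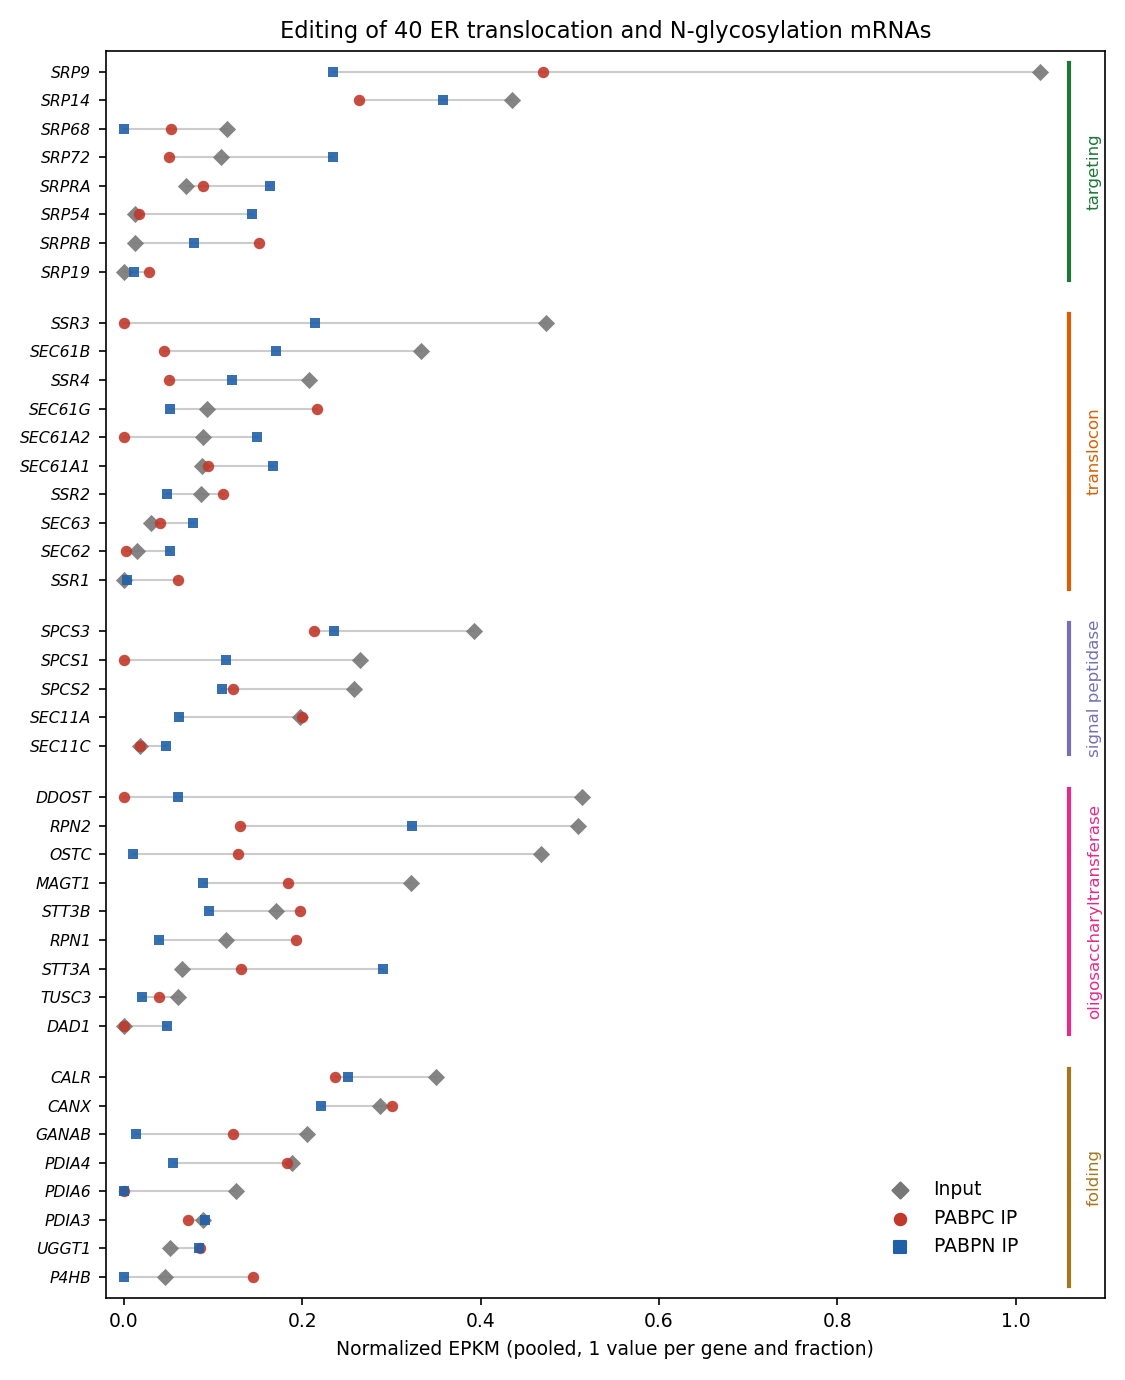
Normalized EPKM (x axis) of the 40 members, grouped by role and ordered by Input EPKM, with a grey diamond for the Input, a red circle for the PABPC fraction and a blue square for the PABPN fraction, each 1 pooled value. SRP9 reaches 1.03 in the Input, and the red circles of DDOST, SSR3 and SPCS1 sit at 0 beside Input values of 0.514, 0.473 and 0.264.

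Among the 8 targeting mRNAs, those of the small Alu-domain subunits led. SRP14, the partner of SRP9, had an EPKM of 0.435 in the Input, 0.263 in the PABPC fraction and 0.357 in the PABPN fraction, the highest PABPN fraction value of any member. SRP54, the GTPase that binds the signal sequence, had the lowest PABPC fraction EPKM of the group at 0.0171, and it was 0.0122 in the Input and 0.144 in the PABPN fraction. SRP72, a scaffold subunit that pairs with SRP68, was edited most in the PABPN fraction, at an EPKM of 0.234 against 0.0509 in the PABPC fraction and 0.109 in the Input. Its partner was edited more in the PABPC fraction than in the PABPN fraction, since SRP68 stood at 0.116 in the Input, 0.0534 in the PABPC fraction and 0 in the PABPN fraction. For the SRP receptor, SRPRA (the peripheral GTPase subunit) had EPKM values of 0.0701, 0.0884 and 0.164 and SRPRB (its membrane anchor) 0.0120, 0.152 and 0.0784 in the Input, PABPC fraction and PABPN fraction. SRP9 and SRP14 thus shared the fraction of highest editing, the Input, while SRP68 and SRP72 did not, nor did SRPRA and SRPRB. SRP19, a subunit that helps SRP RNA fold for SRP54, was the least abundant member in the Input with a TPM of 6.84, and its EPKM was 0, 0.0286 and 0.0109.

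The RNA core of the particle behaved unlike the mRNAs of its proteins. RN7SL1, the SRP RNA gene, which was added after its values were seen, is transcribed by RNA polymerase III without a poly(A) tail and had a TPM of 128398 in the Input, 5547 in the PABPC fraction and 5066 in the PABPN fraction, which made up 15.0%, 0.557% and 0.519% of the summed TPM. Its TPM was thus 23.1 times higher in the Input than in the PABPC fraction and 25.3 times higher than in the PABPN fraction. The copy RN7SL3 had TPM values of 11110, 444 and 264, and reads from such near-identical copies cannot be assigned with certainty. The listed EPKM of the copies is under the same uncertainty, so its differences cannot be read as differences in editing. It was 0.214 in the Input, 0.672 in the PABPC fraction and 0.114 in the PABPN fraction for RN7SL1. For RN7SL3 it was 0.328, 0.600 and 0, and for RN7SL2, which had no TPM, 0.168, 0 and 0. By comparison, the TPM of SRP9 was higher in the PABPC fraction than in the Input, as it was for all 40 members and 95.4% of background genes.

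In the translocon group of 10, editing in the PABPN fraction exceeded that in the PABPC fraction for 7 members and was lower for 3, where 37.4% and 56.4% of background genes were. SEC61A1, the channel-forming subunit of the SEC61 complex, had an EPKM of 0.0870 in the Input, 0.0949 in the PABPC fraction and 0.167 in the PABPN fraction. SEC61B and SEC61G, the small tail-anchored subunits that flank the channel, split in direction. SEC61B stood at 0.333 in the Input, 0.0455 in the PABPC fraction and 0.170 in the PABPN fraction, whereas SEC61G had the highest PABPC fraction EPKM of the group, at 0.217, with 0.0928 in the Input and 0.0512 in the PABPN fraction. SEC62 and SEC63, which assist the channel with proteins that it does not take up well by itself, were below the background median in the PABPC fraction and above it in the PABPN fraction, with EPKM values of 0.00253 and 0.0400 in the former and 0.0521 and 0.0773 in the latter.

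The SSR genes encode the 4 subunits of the translocon-associated protein complex (TRAP), which helps the channel with certain signal sequences. SSR3 showed the widest gap of the translocon group in favour of the PABPN fraction, with EPKM values of 0.473 in the Input, 0 in the PABPC fraction and 0.214 in the PABPN fraction. SSR4 followed the same order at 0.208, 0.0508 and 0.122. SSR2 and SSR1 had it reversed between the precipitates, SSR2 at 0.0862, 0.112 and 0.0487 and SSR1 at 0.000268, 0.0605 and 0.00354. Subunits of 1 complex thus differed in direction, although their mRNAs were all well represented, with Input TPM values of 35.2 for SSR1, 51.7 for SSR2, 157 for SSR3 and 66.6 for SSR4. Over 50% of the exonic bases of SEC61A1, SSR1, SSR2 and SPCS1 lie under another gene in GENCODE release 44, counting whole gene spans on either strand. For SEC61A1, SSR2 and SPCS1 the overlapping genes are all on the opposite strand. The authors left shared regions out of the annotation behind the TPM. SSR2 lies under another gene over 100% of its exonic bases and still had a TPM, so the overlap counted here does not match the regions left out. How much of these 4 transcripts the TPM rests on is unknown.

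Signal peptidase mRNAs had the highest median Input EPKM of the 5 groups, 0.258, at a median Input TPM of 33.3, the lowest of the 5. SPCS3, a subunit required for cleavage, had the highest PABPC fraction EPKM at 0.214, with 0.392 in the Input and 0.236 in the PABPN fraction. SPCS1, a small accessory subunit, was the lowest at 0 in the PABPC fraction, with 0.264 in the Input and 0.115 in the PABPN fraction. SPCS2, another accessory subunit, had 0.258, 0.123 and 0.110 in the Input, PABPC fraction and PABPN fraction. Divided by TPM, these mRNAs had the highest group median of editing in the Input, 6.21 EPKM per 1000 TPM. The other 4 group medians lay between 1.88 and 3.93. Single values overlapped, from 1.66 for SEC11C to 8.73 for SPCS2 in this group and up to 10.8 for SEC61A2 in another. SPCS2 is 1 of 11 members with numbered processed copies in GENCODE, 30 copies in all, of which 5 had rows of their own in the table, and the assignment of reads between such copies is uncertain.

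Within oligosaccharyltransferase, 3 subunits were near an Input EPKM of 0.5 and parted in the precipitates. RPN2, a large structural subunit, had 0.510 in the Input, 0.130 in the PABPC fraction and 0.323 in the PABPN fraction, the widest gap of the group in favour of the PABPN fraction. DDOST, a structural subunit of the same core, had 0.514, 0 and 0.0602. OSTC, the subunit that joins the STT3A complex to the translocon, had 0.468, 0.128 and 0.00997. RPN1, which binds newly made membrane proteins, showed the opposite gap to RPN2, at 0.114 in the Input, 0.193 in the PABPC fraction and 0.0393 in the PABPN fraction, the widest gap in favour of the PABPC fraction in the group. Of the 9 mRNAs, 5 were edited more in the PABPC fraction and 4 in the PABPN fraction, close to the background shares of 56.4% and 37.4%, while 2-fold gaps favoured the PABPC fraction in 2 and the PABPN fraction in 4, where 36.3% and 21.1% of background genes were.

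In the folding group 5 of 8 mRNAs had the higher EPKM in the PABPC fraction and 2 in the PABPN fraction, against background shares of 56.4% and 37.4%, with 2-fold gaps in 3 and 0 (36.3% and 21.1%). CANX (calnexin, the membrane lectin chaperone) had the highest PABPC fraction EPKM at 0.301, with 0.287 in the Input and 0.221 in the PABPN fraction. Its soluble counterpart CALR (calreticulin) was close, at 0.237 in the PABPC fraction, 0.350 in the Input and 0.251 in the PABPN fraction. Both lectins were therefore edited at similar levels in all 3 fractions. Among the disulfide isomerases, P4HB had the widest gap of the group in favour of the PABPC fraction, at 0.145 against 0 in the PABPN fraction and 0.0457 in the Input. PDIA4 had 0.189, 0.183 and 0.0545 in the Input, PABPC fraction and PABPN fraction, and PDIA3, the isomerase that works with the lectins, 0.0885, 0.0717 and 0.0905. PDIA6 had an Input EPKM of 0.125 and was the lowest in the PABPC fraction. These 4 enzymes of related function thus covered every order of the 2 precipitates. GANAB, the catalytic subunit of glucosidase II, had 0.206, 0.123 and 0.0140, and UGGT1, the folding sensor that re-glucosylates incompletely folded glycoproteins, 0.0512, 0.0857 and 0.0844.

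Abundance was compared in the same fractions. Log2 ratios of TPM between fractions were centred on their median over the background genes, which was 0.99 for PABPC fraction to Input, 1.14 for PABPN fraction to Input and -0.19 for PABPC fraction to PABPN fraction before centring. The centred PABPC fraction to PABPN fraction ratio had a median of 0.61 over members, with quartiles of -0.02 and 1.11, and it was above 0 in 29 of 40, where 50.0% of background genes were. Past 0.5, 21 members leaned to the PABPC fraction (30.4% of background genes), and past -0.5, SEC61A2, SEC62, SEC63 and UGGT1 leaned to the PABPN fraction (31.5%). Most of these mRNAs were therefore shared out toward the cytoplasmic protein compared with the average protein-coding gene. Abundant mRNAs in general leaned the same way, and against the genes whose TPM reached 50 in both precipitates the median of members was -0.00 and 20 of 40 were above, with 10 members past 0.5 and 11 past -0.5. That background is more abundant than the members, of which 28 reach this TPM. No share of it past 0.5 or -0.5 was computed, and the 30.4% and 31.5% above belong to the wider background. In bins of Input TPM the medians of members and background genes were -0.31 and -0.35 below 20, 0.50 and 0.26 from 20 to 50, 0.33 and 0.72 from 50 to 100, and 1.08 and 1.13 above. The members thus lay on either side of genes of like abundance, and their lean as a whole depends on the genes they are set beside.

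**Figure D3:**
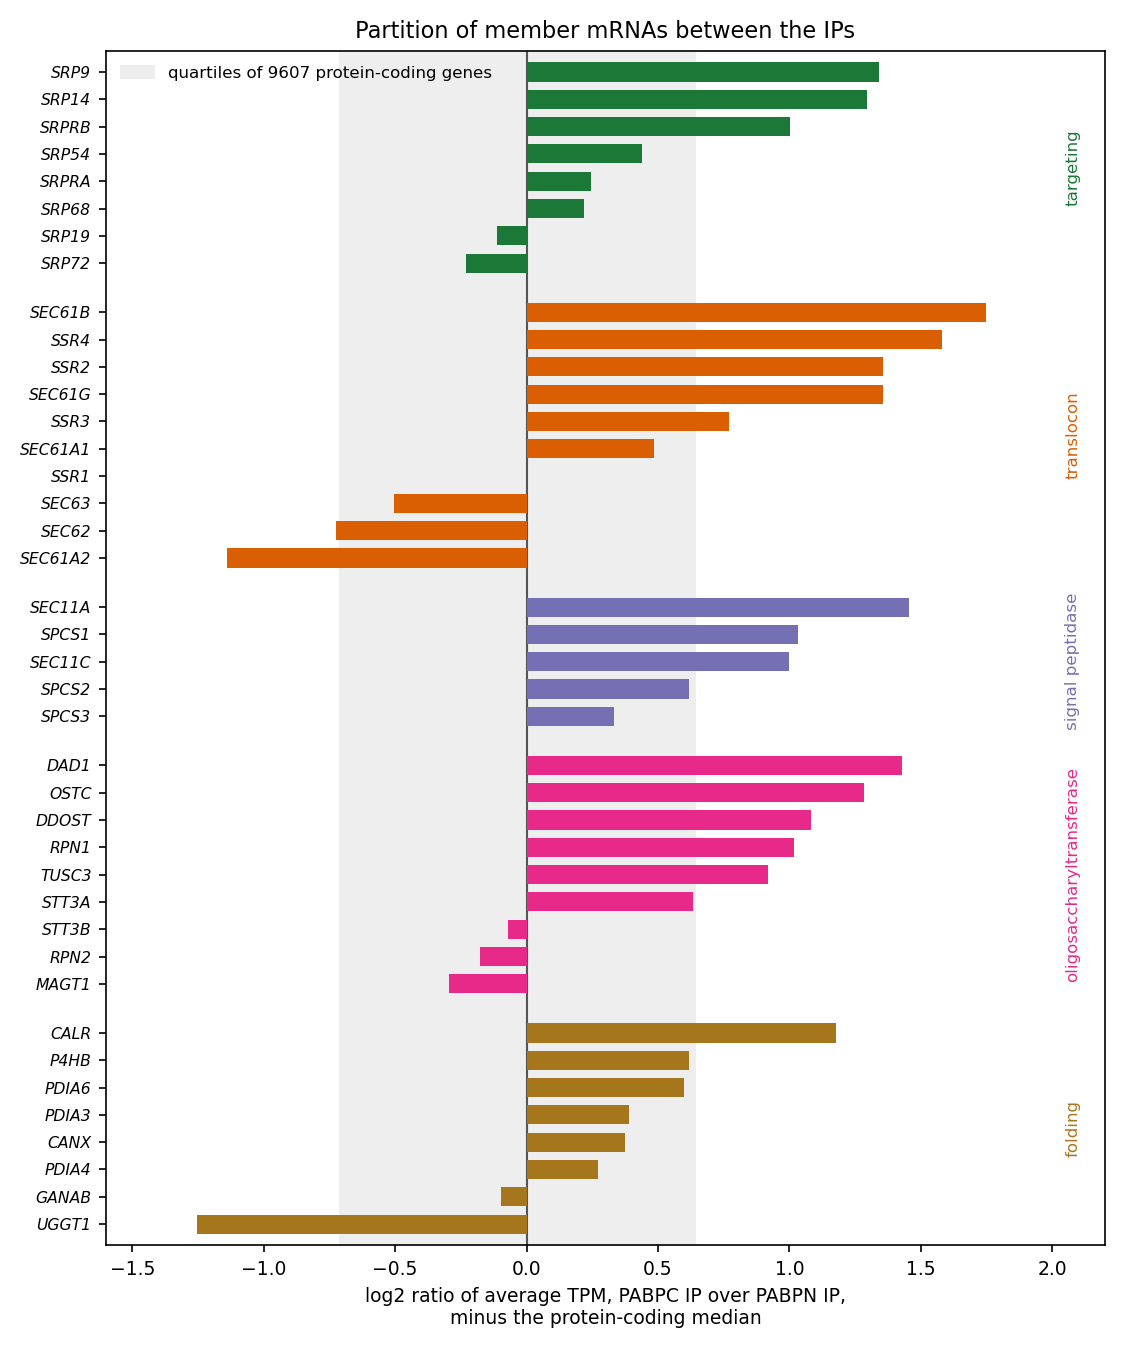
Log2 ratio of average TPM in the PABPC fraction over the PABPN fraction, minus the median of 9607 protein-coding genes (x axis), as 1 bar per member, grouped and coloured by role, with the quartiles of those genes in grey. SEC61B is highest at 1.75 and UGGT1 lowest at -1.25, and all 5 signal peptidase bars point to the PABPC fraction. Against genes whose TPM reached 50 in both precipitates every bar would sit 0.61 lower.

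Each ratio to the Input gave a different picture. The centred PABPC fraction to Input ratio had a median of 0.04 over members (-0.20 against the genes whose TPM reached 50 in both precipitates) and was above 0 in 21 of 40 (11 of 40 against those genes), with SSR4 at 0.57 the 1 member past 0.5 (8.37% of background genes) and SRP54, SRP68, PDIA3 and UGGT1 past -0.5 (18.1%). Against the genes of higher TPM these counts were 0 and 8, and with 0.5 added to each TPM 4 and 3. No background share was computed under either setting. The PABPN fraction to Input ratio had a median of -0.65 and was above 0 in 9 of 40. Past 0.5 there were 3 members, SEC61A2, SEC62 and UGGT1 (24.5% of background genes), and past -0.5 there were 27 (21.6%). Against the genes whose TPM reached 50 in both precipitates the median was -0.29, with 12 of 40 members above 0, 6 past 0.5 and 10 past -0.5. The 24.5% and 21.6% belong to the wider background, and no share was computed against the genes of higher TPM. Over the wider background the lean toward the PABPC fraction thus went with a low PABPN fraction to Input ratio, for 3 ratios that share their fractions. Before centring, the median of members in the PABPN fraction to Input ratio was 0.49. Part of the Input TPM belonged to small RNAs, RN7SL1 at 15.0% and 7SK at 20.4% with a TPM of 174271, and every other TPM is a share of the same total. The members' summed TPM was 0.631% of that of all protein-coding genes in the Input, 0.734% in the PABPC fraction and 0.495% in the PABPN fraction.

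By role, the median of the centred PABPC fraction to PABPN fraction ratio was 1.00 for signal peptidase, 0.92 for oligosaccharyltransferase, 0.63 for the translocon, 0.38 for folding and 0.34 for targeting. In the targeting group it ran from 1.34 for SRP9 to -0.23 for SRP72, and in the translocon from 1.75 for SEC61B to -1.14 for SEC61A2. Signal peptidase spanned 1.46 for SEC11A to 0.33 for SPCS3, oligosaccharyltransferase 1.43 for DAD1 to -0.29 for MAGT1, and folding 1.18 for CALR to -1.25 for UGGT1. The groups overlapped widely, and SRP9, SEC61B and DAD1, which led 3 of them, have coding sequences below 350 bases. Against genes whose TPM reached 50 in both precipitates the targeting and folding medians turned to -0.27 and -0.23, and the others shrank to 0.02 for the translocon, 0.39 for signal peptidase and 0.31 for oligosaccharyltransferase. By the place of the product, the 2 tail-anchored subunits had a median of 1.55, the 24 ER membrane proteins 0.70, the 7 soluble lumenal proteins 0.39 and the 7 cytosolic proteins 0.24. Each of these would be 0.61 lower against the genes of higher TPM, which puts the soluble lumenal and the cytosolic medians below 0.

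The ratio was lower for longer mRNAs. The relation with coding length over the 40 members had a Spearman rho of -0.680, and over 9556 protein-coding genes with a matched transcript it was -0.624, in points that share the same pooled libraries and are not replicates. With the length of the whole transcript the rho was -0.760 over members and -0.586 over those genes, and with the length after the stop codon -0.605 and -0.308. SEC61G has the shortest coding sequence, 207 bases, and a centred ratio of 1.35, and UGGT1 has the longest, 4668 bases, and the lowest ratio. Of the 14 members with a coding sequence below 600 bases, 13 (all except SRP19 at -0.11) were above the median of all background genes, as were 1143 of 1342 background genes of that length, and their own median was 1.32 against 0.86. Between 600 and 1200 bases, 3 of 5 members and 2000 of 2856 background genes were above it. From 1200 to 2400 bases, the median of 18 members was 0.38 against -0.16 for 3570 background genes, and beyond 2400 bases STT3B, UGGT1 and GANAB were all below 0, as were most background genes, of which 166 of 1788 were above. Short mRNAs leaned to the PABPC fraction in the background as well as among the members. Coding length and abundance were themselves related over the background genes, with a rho of -0.255 between coding length and Input TPM, and their separate parts in the ratio were not tested.

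**Figure D4:**
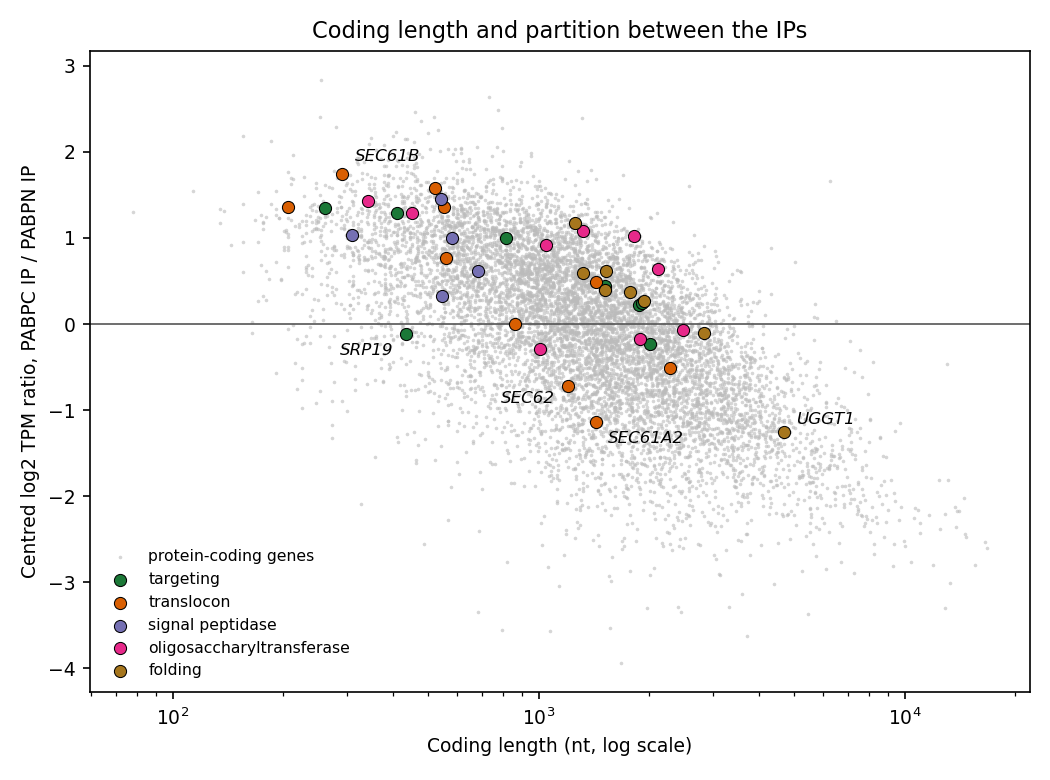
Centred log2 TPM ratio of PABPC fraction over PABPN fraction (y axis) against coding length in bases (x axis, log scale) for 9556 protein-coding genes in grey and 40 members coloured by role. Members follow the downward slope of the background from SEC61B at 291 bases to UGGT1 at 4668 bases, and SRP19, SEC62 and SEC61A2 lie below most members of their length.

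The 4 paralog pairs set related proteins side by side. SEC61A1 and SEC61A2 encode channel subunits with 93.5% identical residues in an alignment of their translated coding sequences, and both coding sequences are 1431 bases long. SEC61A1 was the abundant form, with a TPM of 103 in the Input, 195 in the PABPC fraction and 159 in the PABPN fraction, and SEC61A2 had 8.20, 15.7 and 39.6. The ratio of SEC61A1 to SEC61A2 was thus 12.6 in the Input, 12.4 in the PABPC fraction and 4.03 in the PABPN fraction. Their centred PABPC fraction to PABPN fraction ratios were 0.48 and -1.14, a difference of 1.62 on the log2 scale at the same coding length. Input EPKM was nearly equal, 0.0870 for SEC61A1 and 0.0883 for SEC61A2, so that editing per 1000 TPM was 0.844 for the former and 10.8, the highest of any member in the Input, for the latter, which in the PABPC fraction was listed at 0.

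SEC11A and SEC11C, the alternative catalytic subunits of signal peptidase with 79.3% identical residues, differed in abundance and little in partition. SEC11A had a TPM of 33.3, 87.0 and 36.3 and an EPKM of 0.197, 0.200 and 0.0617 in the Input, PABPC fraction and PABPN fraction. SEC11C had a TPM of 10.7, 27.7 and 15.8 and an EPKM of 0.0178, 0.0178 and 0.0474. Both leaned to the PABPC fraction, with centred ratios of 1.46 and 1.00, while the higher EPKM of the precipitates was in the PABPC fraction for SEC11A and in the PABPN fraction for SEC11C.

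STT3A and STT3B, the catalytic subunits of the co-translational and the post-translational form of oligosaccharyltransferase, share 62.2% of aligned residues and were about equally abundant in the Input, at a TPM of 44.4 and 51.9. In the PABPN fraction they stood at 60.1 and 132, and in the PABPC fraction at 81.7 and 110. STT3A leaned to the PABPC fraction, with a centred ratio of 0.64, and STT3B was near the median at -0.07. Editing went the other way. STT3A had an EPKM of 0.0656 in the Input, 0.132 in the PABPC fraction and 0.291 in the PABPN fraction, whereas STT3B, which had the highest PABPC fraction EPKM of its group, had 0.170, 0.198 and 0.0950.

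TUSC3 and MAGT1, the alternative oxidoreductase subunits that join STT3B complexes, share 67.4% of aligned residues. MAGT1 was more abundant, at a TPM of 48.8, 82.7 and 116 in the Input, PABPC fraction and PABPN fraction against 15.4, 38.7 and 23.4 for TUSC3. Their EPKM values were 0.322, 0.185 and 0.0888 for MAGT1 and 0.0610, 0.0394 and 0.0207 for TUSC3, in the same order of fractions. Partition parted them, with centred PABPC fraction to PABPN fraction ratios of -0.29 for MAGT1 and 0.92 for TUSC3, though their coding sequences are of similar length, 1008 and 1047 bases. In each of the 4 pairs the paralogs thus differed by 0.46 to 1.62 in this ratio, without a replicate check.

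Other genes of the pathway, from lists chosen by function, stood on both sides of the members. The ER membrane complex, an insertase for membrane segments that SEC61 handles poorly, had a higher EPKM in the PABPC fraction than in the PABPN fraction for all 10 of its mRNAs, and the machinery that inserts tail-anchored proteins for all 7 found in the table. EMC7 had the widest gap of the former, at 0.262 against 0.0110, and EMC2 the narrowest, at 0.0267 against 0.0127. Of the latter, CAMLG had 0.146 against 0.0162 and GET1, its partner in the receptor, 0.105 against 0.0985. These routes into the ER membrane had centred PABPC fraction to PABPN fraction TPM ratios with medians of 0.72 and 0.81, close to that of the members. Higher EPKM in the PABPC fraction was found in 56.4% of background genes and 19 of 40 members, and every other list was divided. Gaps of 2-fold or more favoured the PABPC fraction in 7 of 10 and 6 of 7 genes (36.3% of background genes). They favoured the PABPN fraction in 0 of either list (21.1%). An EPKM of 0 in the PABPN fraction was listed for 4 of 10 and 2 of 7 (27.1%). For those genes any EPKM above 0 in the PABPC fraction sets the direction. Small lists like these have no test here.

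Accessory subunits of the translocon and oligosaccharyltransferase had a higher EPKM in the PABPC fraction for 7 of 12 genes, near the 56.4% of background genes, but 2-fold gaps favoured it in 1 gene and the PABPN fraction in 4, against 36.3% and 21.1%. TRAM1, a membrane protein beside the channel, had the widest gap toward the PABPC fraction, at an EPKM of 0.282 against 0.181, and KRTCAP2, a subunit of STT3A complexes, the widest toward the PABPN fraction, at 0.0177 against 0.130. The near-identical genes NOMO1, NOMO2 and NOMO3 are among the 12, and their values are uncertain for shared reads. Glycan assembly and trimming, the dolichol pathway and the first glycosidases, was less abundant, with a median Input TPM of 20.9, and 14 of 26 genes passing the filter had the higher EPKM in the PABPC fraction, near the 56.4% of background genes. DPM1, the catalytic subunit of dolichol-phosphate mannose synthase, led there with an EPKM of 0.271 in the PABPC fraction against 0 in the PABPN fraction. ALG11 was the 1 gene of the list below a TPM of 5 in a precipitate. Both lists had median centred TPM ratios near the background, 0.04 and 0.09.

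Lumenal chaperones beside the members had equal counts, with 10 of 24 genes higher in the PABPC fraction (56.4% of background genes), 10 in the PABPN fraction (37.4%) and 4 equal. Gaps of 2-fold or more favoured the PABPC fraction in 7 and the PABPN fraction in 10, against 36.3% and 21.1% of background genes. HSPA5 (BiP, the main lumenal HSP70) had the widest gap toward the PABPN fraction, with an EPKM of 0.0791 in the Input, 0.0858 in the PABPC fraction and 0.411 in the PABPN fraction. SDF2L1, a cofactor of BiP cycles, had the widest gap toward the PABPC fraction, at 0.0466, 0.195 and 0. The median centred TPM ratio of the list was 0.00, with a median Input TPM of 12.1, and 10 of its 24 mRNAs were listed at 0 in the PABPC fraction, where 17.4% of background genes were. Set beside them, the 8 folding members were more abundant, at a median Input TPM of 72.9, and 1 of 8 was listed at 0 there.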

How the data were processed

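The authors' deposited EPKM (control-subtracted) and average TPM were used unchanged and TPM was treated as a deposited signal, as its sums differ between fractions. The authors aligned with STAR and counted with featureCounts 2.0.2 on a custom annotation from another GENCODE release. Biotypes were those deposited by the authors, and GENCODE release 44 on hg38 gave MANE Select transcripts and sequences. The background was 9607 protein-coding genes whose TPM reached 5 in both precipitates. Log2 TPM ratios had no pseudocount and were centred on the background median, with a threshold of 0.5. EPKM folds used a pseudocount of 0.01. Named genes were the highest and lowest per group or list in PABPC fraction EPKM, in its difference from the PABPN fraction and in the TPM ratio, and 2 of these are left unreported. Others, RN7SL1, length and abundance bins and EPKM per TPM were chosen after the values were seen. Members and lists were chosen with earlier results of these data known. Alternatives changed filter, pseudocount, fold, background, centring and groups. Python 3.11.15, pandas 2.3.3, numpy 2.4.6, scipy 1.17.1 and biopython 1.88 were used.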

Additional observations from a re-analysis of the deposited data

How the results depend on the processing

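The counts of members with the higher EPKM in the PABPC fraction, of members with an Input EPKM above the background median and of members above the median PABPC fraction to PABPN fraction ratio stayed within 1.5 times under every alternative tried. That margin is wide enough to reach the 50.0% of background genes. Against genes whose TPM reached 50 in both precipitates, 50% of members were above the median PABPC fraction to PABPN fraction ratio, compared with 72.5% as reported. For Input EPKM the share was then 55%, compared with 82.5%. Staying within 1.5 times therefore does not mean that a lean was kept. Over these and the other counts of members with no TPM ratio threshold, 54 of 60 planned comparisons stayed within that margin, and 6 did not. For counts past 0.5 or -0.5 in a TPM ratio 14 of 30 did. For medians 30 of 37 kept their sign and stayed inside a binomial interval, set at 95%, of the reported median. That interval treats genes as independent draws, but members were chosen by name, share the same pooled libraries and are not replicates. It serves only as a margin. For targeting, signal peptidase and folding it was the full range of the group, which a median could hardly leave. In signal peptidase, at 0.33 to 1.46, the genes were too few to reach 95%.

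With a pseudocount of 0.1, the share of members at least 2-fold higher in EPKM was 10% for the PABPC fraction (4 members) and 12.5% for the PABPN fraction (5 members), and with a 1.5-fold limit it was 40% for each (16 members). With a pseudocount of 0.001 it was 35% (14 members) and 32.5% (13 members), so that the lean of the 2-fold counts toward the PABPN fraction was not kept. Shares of background genes past a fold limit were computed only at a pseudocount of 0.01 and a 2-fold limit. Without centring, 100% of members were above 0 in the PABPC fraction to Input TPM ratio and 95% in the PABPN fraction to Input ratio, against 95.4% and 96.7% of background genes, and the members' median of the PABPN fraction to Input ratio was 0.49, since the background medians of 0.99 and 1.14 were then left in. Against genes whose TPM reached 50 in both precipitates, 27.5% of members were above 0 in the PABPC fraction to Input ratio. The median of members was then -0.20 for that ratio and -0.002783 for PABPC fraction to PABPN fraction, and the latter was -0.27 for targeting, -0.23 for folding, 0.02 for the translocon, 0.39 for signal peptidase and 0.31 for oligosaccharyltransferase. That background moved the 3 ratios by 0.25, 0.36 and 0.61 on the log2 scale. Leaving out the signal peptidase group or the oligosaccharyltransferase group put the PABPC fraction to Input median at -0.01126. Beyond these constructions the cause was not tested.

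Replicates could not be used. No paired analysis was possible because the deposited columns carry no replicate values, and for the same reason leaving out each replicate and a fit with the replicate block were not run. Among alternatives chosen after the values were seen, division by TPM and leaving out members with processed copies or shared exons kept 16 of 16 counts within 1.5 times. The group medians against genes of higher TPM, given above, were also chosen then, and each fell by over 1.5 times or changed sign.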

Other observations

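Lists farther from the translocation step were read in the same way. ER-associated degradation genes, which carry misfolded proteins back to the cytosol for destruction, had the higher EPKM in the PABPC fraction for 10 of 20 and in the PABPN fraction for 10, where 56.4% and 37.4% of all protein-coding genes passing the filter were. ERLEC1, a lectin, had the widest gap toward the PABPN fraction, at an EPKM of 0.126 in the PABPC fraction against 0.232. Their median centred PABPC fraction to PABPN fraction TPM ratio was 0.04.

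Regulators of the unfolded protein response had 4 of 9 genes higher in EPKM in the PABPC fraction and 4 in the PABPN fraction (background shares of 56.4% and 37.4%), with a median centred TPM ratio of -0.19. ATF6B, a membrane-bound transcription factor, had an EPKM of 0.151 in the PABPC fraction and 0 in the PABPN fraction, and DDIT3, a stress-induced transcription factor, 0.0831 and 0.186. ERN1 had a TPM below 5 in a precipitate. The CCT chaperonin, a cytosolic folding machine taken for comparison, had 5 of 8 genes higher in EPKM in the PABPC fraction, near the background share of 56.4%, and a median TPM ratio of 0.83. CCT3 led toward the PABPC fraction with 0.237 against 0.0980, and CCT6A toward the PABPN fraction with 0.0630 against 0.178.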
